A study of Drosophila melanogaster with 9 samples.

Results

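The genes sls, bt, Unc-89, Strn-Mlck, Msp300, Zasp52 and Zasp66 encode the titin-like giants of fly muscle and proteins of the Z-disc and of nuclear anchoring. They were chosen by their FlyBase symbols and are 7 of the 23932 features in the gene table. Their 79 annotated transcripts are among 41200 in the transcript table. All 7 genes and all 79 transcripts passed the filter on low counts. The set was proposed with the values of these libraries in view, so the levels and fold changes of the 7 genes between fractions are given as a description. Counts of these genes and of their transcripts past a threshold stand beside the share of all features that passed it, and nothing is read from them.

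In a striated muscle, actin filaments are anchored at the Z-disc and slide past myosin filaments that are held together at the M-band. Titin-like proteins are chains of immunoglobulin and fibronectin domains that tie these structures to each other and give the relaxed muscle its stiffness. In Drosophila the work of the single vertebrate titin is shared among several genes, chiefly sls and bt. The head holds the muscles of the proboscis, the antennae and the eye among far larger numbers of neurons, glia and fat cells. Ribosomes that follow each other on a long coding sequence form polysomes, whereas a message with a single ribosome sediments as an 80S monosome.

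RNA was sequenced from heads of wild type Dahomey flies that had received no treatment, in 3 kinds of sample with 3 replicates each. By the study's methods the heads were pooled from whole flies aged 0 to 5 days. Cycloheximide was present during lysis, and the lysate was spread on a sucrose gradient from which the monosome and the polysome fractions were combined. Total RNA came from a part of the lysate that was kept back. The comparison of the fractions asks which messages are carried by single ribosomes and which by several.

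The libraries held between 13555484 and 44096558 estimated counts each, and replicates differed by more than counting noise (chi-square per degree of freedom 12.6 to 126 between replicates of a fraction). The design text calls the replicates biological triplicates and does not say how they were separated. CPM are counts divided by the scaled size of the library in the usual way, so a value is a share of the RNA sequenced and not an amount per cell. In whole heads, fewer muscle cells and less RNA per muscle cell cannot be told apart. The 5 thick filament genes that passed the filter (Mhc, Mlc1, Mlc2, Prm and Mf) summed to between 8501 and 15004 CPM in every library, so muscle RNA was present throughout. The flight muscle genes fln and TpnC4 did not pass the filter. The flight muscle actin Act88F did, with means of 25.6, 23.4 and 36.4 CPM in 80S monosomes, polysomes and total RNA.

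The 7 genes together took 0.755% ± 0.0846 of all counts in 80S monosomes, 1.34% ± 0.206 in total RNA and 2.27% ± 0.579 in polysomes (SD, n = 3). The 3 polysome libraries held 2.78%, 1.64% and 2.40%, and the lowest of them was above the highest total RNA library, at 1.54%. The lowest total RNA library, at 1.13%, was in turn above the highest 80S library, at 0.833%. Against 80S monosomes, polysomes held 5.40 times the level of sls, 4.69 times that of Msp300, 3.54 times that of Strn-Mlck and 3.07 times that of bt, whereas Zasp66 and Zasp52 stood at 0.650 and 0.560 times. The smallest of these giants by annotated coding length, Unc-89, stood at 1.36 times.

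**Figure D1:**
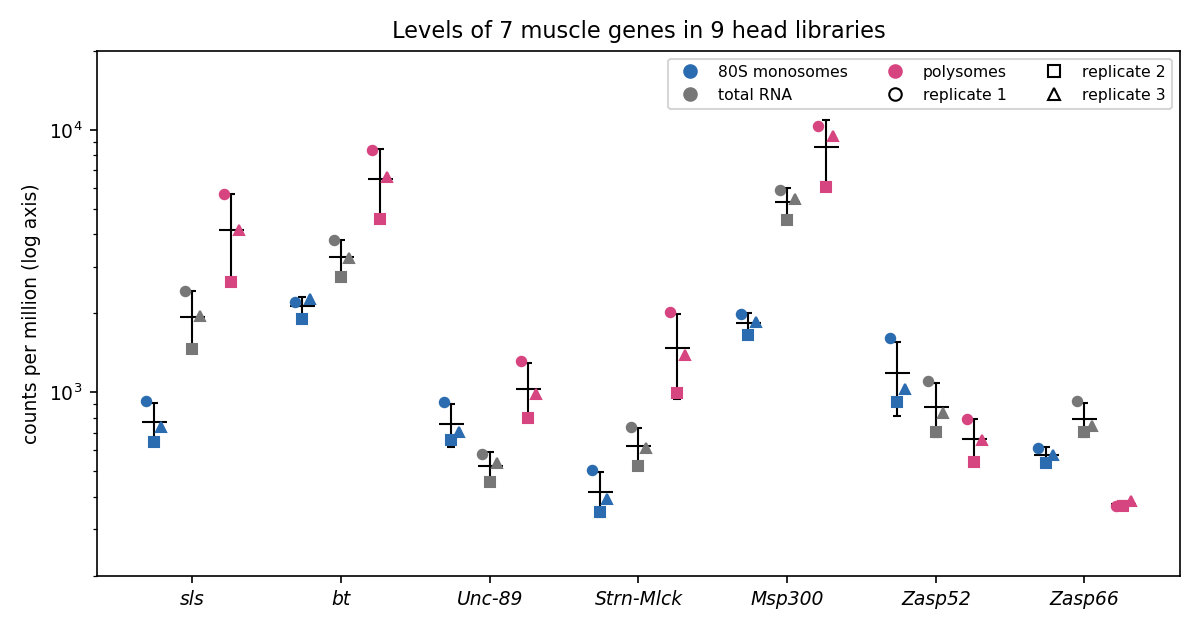
CPM (log axis) of the 7 genes in each of the 9 libraries, with 80S monosomes in blue, total RNA in grey and polysomes in pink; point shapes are replicates, and black bars are the mean and 1 SD of 3 libraries. The polysome libraries of sls, bt, Strn-Mlck and Msp300 all lie above their 80S libraries, those of Zasp52 and Zasp66 all lie below, and those of Unc-89 overlap.

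sls encodes Sallimus, an elastic protein that links the Z-disc to the end of the thick filament, and its short forms are known as kettin. It lies on chromosome 3L from 2039681 to 2115611 on the reverse strand (BDGP6, coordinates of the Ensembl annotation), and its longest coding sequence has 18468 codons. sls stood at 922, 644 and 738 CPM in the 80S libraries of replicates 1, 2 and 3, at 5692, 2618 and 4144 CPM in the polysome libraries and at 2421, 1457 and 1945 CPM in total RNA. Every polysome library was above every total RNA library, and every total RNA library above every 80S library. The log2 fold change of polysomes over 80S monosomes was 2.43 (SE 0.27), the highest of the 7 genes, and lay between 2.02 and 2.63 within the 3 replicate numbers. Over total RNA, the log2 fold change was 1.10 (SE 0.26) in polysomes and -1.34 (SE 0.26) in 80S monosomes.

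bt, or bent, encodes projectin, a giant kinase that is part of the connecting filaments of flight muscle and lies along the thick filament in other muscles. It spans positions 724400 to 776474 of the forward strand of the small chromosome 4, with a longest coding sequence of 8933 codons. Its 80S libraries held 2198, 1905 and 2263 CPM, its polysome libraries 8396, 4562 and 6598 CPM, and its total RNA libraries 3813, 2753 and 3255 CPM. As for sls, the 3 fractions did not overlap and polysomes were highest. The log2 fold changes of bt were 1.62 (SE 0.20) for polysomes over 80S monosomes, 0.99 (SE 0.20) for polysomes over total RNA and -0.63 (SE 0.20) for 80S monosomes over total RNA.

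Strn-Mlck, or Stretchin-Mlck, encodes large immunoglobulin-rich proteins of the thick filament region and, from other transcripts, shorter proteins with the domains of a myosin light chain kinase. The gene is on the reverse strand of chromosome 2R, from 15946933 to 15989498, and its annotated coding sequences run from 576 to 8255 codons. It stood at 506, 348 and 391 CPM in 80S monosomes, at 2028, 991 and 1384 CPM in polysomes and at 735, 524 and 613 CPM in total RNA. The fractions were again separate, with polysomes highest and 80S monosomes lowest. The log2 fold change was 1.82 (SE 0.24) for polysomes over 80S monosomes, and polysomes exceeded total RNA by 1.23 (SE 0.24), the highest such value of the 7 genes.

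Unc-89 encodes the fly obscurin, a giant of the M-band with kinase domains, and the newer annotation calls the gene Obsc. It lies on chromosome 2R from 23995543 to 24014254, on the reverse strand, with a longest coding sequence of 4218 codons. Its 80S libraries held 919, 658 and 703 CPM, its polysome libraries 1311, 801 and 986 CPM and its total RNA libraries 583, 453 and 539 CPM. Polysome replicate 2 was below 80S replicate 1, so these 2 fractions overlapped, and both lay wholly above total RNA. The log2 fold change was 0.44 (SE 0.18) for polysomes over 80S monosomes. Unlike the other giants, Unc-89 had a positive log2 fold change in both fractions over total RNA, 0.53 (SE 0.18) in 80S monosomes and 0.98 (SE 0.18) in polysomes.

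Msp300 encodes the fly muscle nesprin, a spectrin repeat protein that spans the nuclear envelope and ties muscle nuclei to the Z-disc and the cytoskeleton. It occupies 5100877 to 5207002 of the forward strand of chromosome 2L, and its longest coding sequence has 13540 codons. The 80S libraries held 1994, 1652 and 1855 CPM, the polysome libraries 10352, 6029 and 9437 CPM, and the total RNA libraries 5914, 4535 and 5451 CPM. The lowest polysome library was only just above the highest total RNA library, and both fractions were far above 80S monosomes. The log2 fold change of polysomes over 80S monosomes was 2.23 (SE 0.19). That of 80S monosomes over total RNA, -1.53 (SE 0.19), was the lowest of the 7 genes.

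Zasp52 and Zasp66 encode PDZ domain proteins of the Z-disc, and Zasp52, which binds alpha-actinin, carries LIM domains as well. Zasp52 is on the reverse strand of chromosome 2R from 15762565 to 15817004, with up to 2194 codons, and Zasp66 on the forward strand of chromosome 3L from 8624371 to 8638813, with up to 430 codons. Zasp52 stood at 1608, 915 and 1028 CPM in 80S monosomes, at 792, 543 and 656 CPM in polysomes and at 1107, 708 and 831 CPM in total RNA. Its 80S libraries were all above its polysome libraries, while total RNA overlapped both. Its log2 fold change of polysomes over 80S monosomes was -0.84 (SE 0.23), the lowest of the 7 genes.

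Zasp66 held 615, 537 and 578 CPM in 80S monosomes, 369.6, 370.1 and 386 CPM in polysomes and 925, 706 and 746 CPM in total RNA. The 3 fractions were separate, with total RNA highest and polysomes lowest, which is the reverse of the place that polysomes took for sls, bt, Strn-Mlck and Msp300. Its log2 fold changes were -0.62 (SE 0.11) for polysomes over 80S monosomes and -1.08 (SE 0.11) for polysomes over total RNA.

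**Figure D2:**
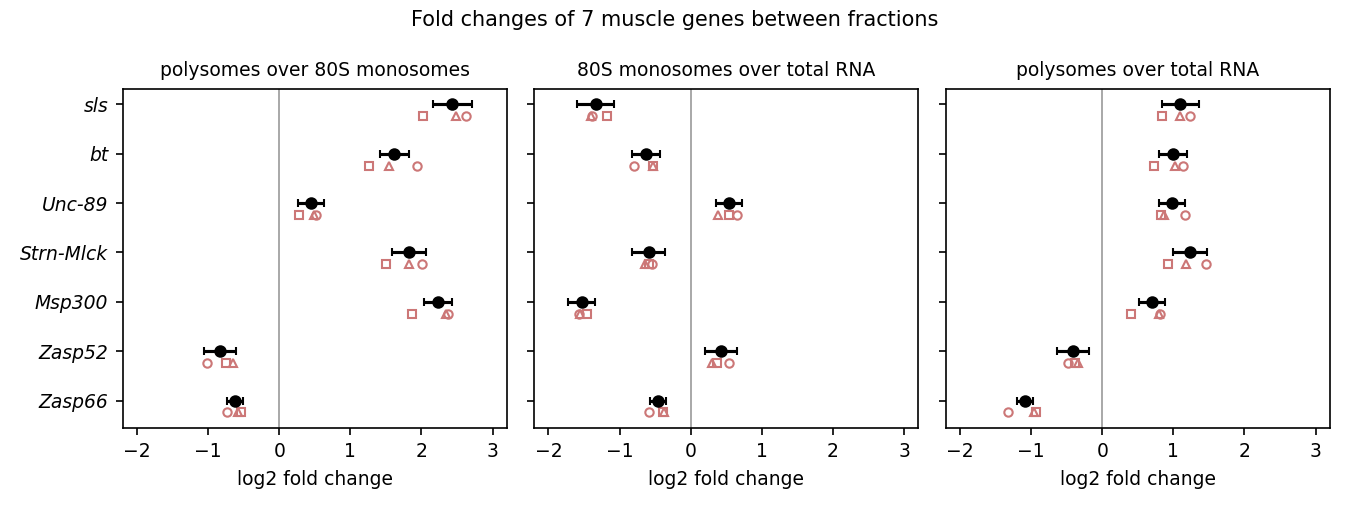
Log2 fold changes of the 7 genes in the 3 comparisons; black points and bars are the fitted value and its standard error over all 9 libraries, and open red symbols are the ratios within replicates 1 (circle), 2 (square) and 3 (triangle). Polysomes over 80S monosomes runs from -0.84 for Zasp52 to 2.43 for sls, and within each gene and comparison the 3 replicates have the same sign.

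Counted over the set, polysomes held more of 4 and less of 1 of the 7 genes than 80S monosomes did (adjusted p under 0.01 in edgeR), where 7.87% and 4.31% of all 13076 features tested were. When the replicate number entered the fit as a block, 5 were higher and 2 lower, beside 27% of all features in either direction. The libraries did not overlap for 4 higher and 2 lower genes, against 15.9% and 20.6% of all features. In 80S monosomes against total RNA, 0 genes were higher and 3 (sls, Msp300 and Zasp66) were lower past the threshold, beside 6.68% and 8.95% of all features. The libraries were apart for 1 higher and 5 lower genes, against 22.8% and 25.6%. Of 16 alternatives to this fit, Msp300 stayed past the threshold in 16, sls in 11 and Zasp66 in only 3. The count of 3 genes past the threshold fell to 1 when 80S replicate 2, 80S replicate 3, total RNA replicate 1 or total RNA replicate 3 was left out. With the block it was 7, beside 34.5% of all features.

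In polysomes against total RNA, 4 genes were higher (sls, bt, Unc-89 and Strn-Mlck) and 1 was lower (Zasp66), with 10.4% and 12.2% of all features. Libraries were apart for 5 higher genes and 1 lower gene, beside 24.8% and 28.8%. The count of 5 past the threshold was 1 without total RNA replicate 2, 2 without total RNA replicate 3 and 3 without polysome replicate 3. With the block it was 7, beside 41.3% of all features. Because these comparisons belong to the values by which the genes were proposed and share libraries with one another, the counts are a description. The median log2 fold change of the 7 genes was 1.62, -0.59 and 0.98 in the 3 comparisons as ordered here, and that of all features tested was -0.08, -0.02 and -0.05.

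The spread between replicates had a common pattern. Replicate 1 was the highest of its fraction for 6 of 7 genes in 80S monosomes, with bt as the exception. It was the highest for 6 of 7 in polysomes, with Zasp66 as the exception, and for 7 of 7 in total RNA. Replicate 2 was the lowest for 7, 6 and 7 of the genes. The summed thick filament genes shared this order in each fraction, with 15004, 9733 and 10694 CPM in the 80S libraries of replicates 1, 2 and 3, 9548, 8501 and 9074 CPM in the polysome libraries and 13501, 10199 and 11427 CPM in total RNA. The summed thin filament genes shared it in 80S monosomes and total RNA only. In polysomes they had replicate 1 lowest, at 5887, 6039 and 6401 CPM. The summed fat body markers had replicate 1 lowest in each fraction, at 25186, 39443 and 40333 CPM in 80S monosomes, 23000, 35631 and 34565 CPM in polysomes and 29739, 41683 and 42502 CPM in total RNA. The part of these lists in the spread of the 7 genes was not tested.

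Levels can be compared between genes only per length, here as CPM per kilobase of annotated exon. The length is the union of exons over all transcripts of a gene, which need not match any single transcript. For Msp300 it is 69810 bases, whereas Msp300-RG, its longest transcript by coding sequence, has 43121. The orders below hold for this length only and could differ with another. In 80S monosomes Zasp66 (205) and Zasp52 (108) stood above the giants, of which bt had 75.7, Unc-89 57.3, Msp300 26.3, sls 13.0 and Strn-Mlck 12.7 CPM per kilobase. The ranges of bt and Unc-89 overlapped, as did those of sls and Strn-Mlck, and the other neighbours did not. In polysomes bt was highest, at 233 CPM per kilobase, and apart from the rest. The order below it was Zasp66 (133), Msp300 (123), Unc-89 (77.9), sls (70.4), Zasp52 (60.8) and Strn-Mlck (44.8), where each gene's range overlapped that of the next. In total RNA the order was Zasp66 (282), bt (117), Zasp52 (80.8), Msp300 (75.9), Unc-89 (39.6), sls (32.9) and Strn-Mlck (19.0). There bt overlapped Zasp52, Zasp52 overlapped Msp300 and Unc-89 overlapped sls, and the other neighbours were apart.

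Genes of the rest of the sarcomere and of its links to membrane and nucleus were read from 6 lists, written by function with earlier results of these data known. Of the 50 listed genes that were tested, 4 passed 0.01 in polysomes against 80S monosomes, 3 higher and 1 lower. The test was edgeR's quasi-likelihood test with Benjamini-Hochberg adjustment over all features, of which 7.87% passed higher and 4.31% lower. With the replicate block 26 of the listed genes did, 6 higher and 20 lower, beside 27% of all features in either direction. The same shares stand beside the counts of each list below. The share with the block was not split by direction, so nothing is read from the block counts of either direction. None of the 5 thick filament genes passed, and their median log2 fold change was -0.35. Within it the values were 0.06 for Mlc2 and -0.15 for Mlc1, the myosin light chains, -0.45 for Mf, myofilin, and -0.60 (SE 0.22) for Mhc, the muscle myosin heavy chain. With the block 2 of the 5 were lower.

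Among 14 thin filament genes 0 were higher and 1 was lower, with a median log2 fold change of -0.14. TpnC41C, a troponin C, fell by 0.59 on the log2 scale in polysomes (adjusted p = 0.00752 in edgeR), and this count of 1 ranged from 0 to 4 over the alternatives. Another troponin C, TpnC25D, had a log2 fold change of -0.72, and the tropomyosins Tm1 and Tm2 had 0.28 and 0.14. With the block 1 of the 14 was higher and 4 were lower. Of the 8 other genes of the Z-disc and sarcomere linkers, 0 passed, and the median was -0.23. In this list the log2 fold changes were 0.14 for Mlp60A and -0.55 for Mlp84B, both muscle LIM proteins, 0.07 for tn, a TRIM protein of the sarcomere, and -0.50 for cher, the fly filamin. With the block 4 of the 8 were lower.

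None of the 10 muscle attachment genes passed, with a median of -0.21. Their values included 0.09 for Vinc, vinculin, -0.10 for stck, the fly PINCH, -0.34 for Pax, paxillin, and -0.43 for by, a tensin. With the block 4 of the 10 were lower. In the list of excitation-contraction coupling, 2 of 6 genes were higher in polysomes. RyR, the calcium release channel of the sarcoplasmic reticulum, rose by a log2 fold change of 1.5 (SE 0.20, adjusted p = 0.000347 in edgeR). Ca-alpha1D, a voltage-gated calcium channel of muscle and neurons, rose by 0.95 (SE 0.16, adjusted p = 0.00129 in edgeR). The sarcolamban peptides SclA and SclB, which regulate the calcium pump, had -0.83 and -0.79 at levels of 1.15 to 4.31 CPM, with equal means in total RNA, so that their values are not separate. With the block 2 genes were higher and 3 lower.

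Of 7 spectrin repeat and nuclear linker genes, 1 was higher. shot, the spectraplakin that links actin and microtubules, rose by 1.81 (SE 0.18, adjusted p = 4.3e-05 in edgeR), and its coding sequence of 8805 codons is close in length to that of bt. kst, the heavy beta spectrin, has 4337 codons, and its log2 fold change of 0.53 (SE 0.17) was within 1 SE of the 0.44 of Unc-89, which has 4218. beta-Spec and koi, a SUN protein of the nuclear envelope, had -0.32 and -0.31. With the block 3 genes were higher and 3 lower.

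The genes that passed upward, RyR, Ca-alpha1D and shot, have longest coding sequences of 5134, 2705 and 8805 codons. Over all nuclear protein-coding genes outside the 7, the median log2 fold change of polysomes over 80S monosomes was -0.13 in 5729 genes under 500 codons and 0.37 in 259 genes of at least 2000 and under 4000 codons. In the 37 genes of 4000 codons or more it was 1.38, with quartiles of 0.86 and 1.81, and 27 of the 37 (73.0%) passed the threshold upward. sls and Msp300 lay above the upper quartile of that class, Strn-Mlck and bt near it, and Unc-89 below the lower quartile. Zasp52 (-0.84) was below the lower quartile of 0.08 among genes of at least 2000 and under 4000 codons, of which 97 were higher and 2 lower past the threshold. The classes go by the longest annotated coding sequence of each gene. Zasp52 falls in this class by its longest, of 2194 codons, whereas its shortest has 233. Zasp66 (-0.62) was below the lower quartile of -0.32 among genes under 500 codons. In the class of 4000 codons or more the median was -0.41 for 80S monosomes over total RNA and 0.96 for polysomes over total RNA. The part of coding length in the values of the 7 genes was not tested.

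**Figure D3:**
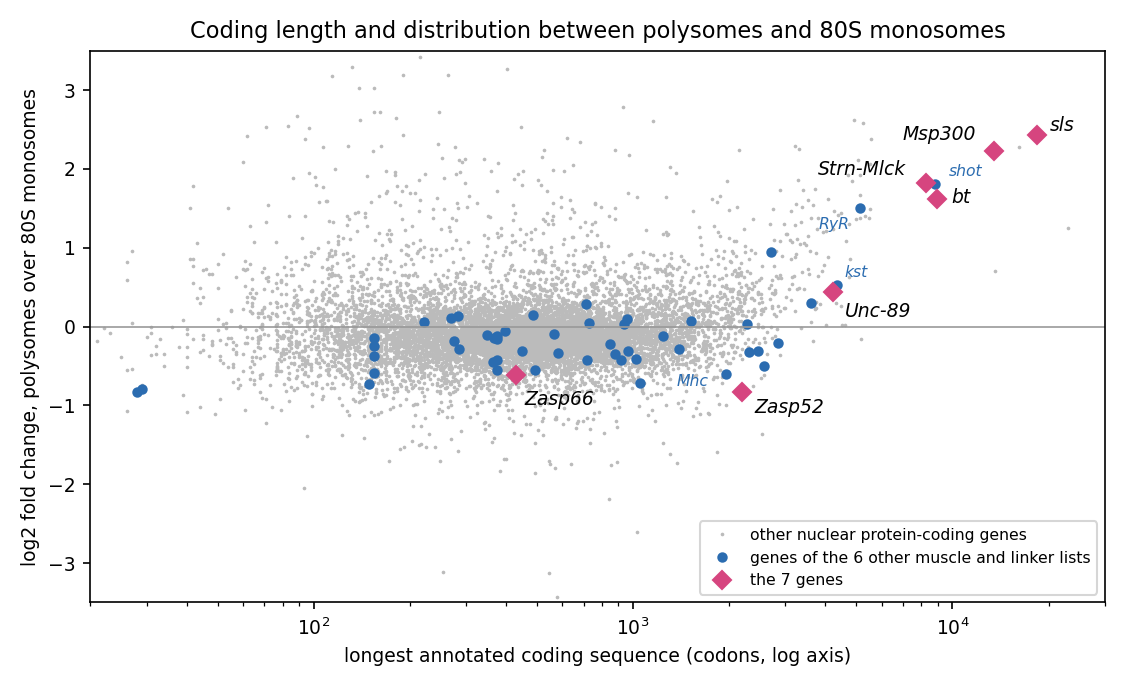
Longest annotated coding sequence (codons, log axis) against the log2 fold change of polysomes over 80S monosomes for 10411 nuclear protein-coding genes, with the 7 genes as pink diamonds, the 6 lists as blue points and other genes in grey; 9 genes lie outside the axes. sls, with 18468 codons, is at 2.43, while Zasp52, with 2194 codons, is at -0.84.

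Markers of other cell types were read beside these values. Their counts stand beside 7.87% of all features higher and 4.31% lower, or 27% in either direction with the block. Of 5 neuron markers, 3 passed the threshold upward in polysomes over 80S monosomes, and the sum of all 5 was 3666 to 3996 CPM in the 80S libraries, 4549 to 5048 CPM in total RNA and 6069 to 6661 CPM in polysomes. The 3 were para, a sodium channel (log2 fold change 2.24, adjusted p = 3.85e-06 in edgeR), brp, an active zone protein (0.94, adjusted p = 0.000116), and Syt1, a synaptic calcium sensor (0.68, adjusted p = 0.00031). Their longest coding sequences have 2145, 2243 and 474 codons. nSyb (0.10) and elav (0.12) did not pass. All 5 were present in each fraction, and the part of neurons in the values of genes that neurons may express as well, such as shot, was not tested.

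None of 5 glia markers passed (0.01 for Eaat1, -0.18 for nrv2, -0.25 for Gs2 and -0.28 for moody), and 1 was lower with the block. Their sums were 1938 to 2566 CPM in 80S monosomes, 1736 to 2298 CPM in polysomes and 2967 to 3299 CPM in total RNA, where every library was above both other fractions. The marker repo went the other way, with means of 67.6, 57.1 and 44.3 CPM in 80S monosomes, polysomes and total RNA. Of 6 photoreceptor markers, ninaE, the main rhodopsin, was lower by a log2 fold change of -0.53 (adjusted p = 0.00977 in edgeR), with 0.25 for trp, 0.13 for norpA and -0.20 for Arr2. This call held in 3 of 16 alternatives and was lost when any single library other than polysome replicate 2 was left out. The photoreceptor sums were 14497 to 16265 CPM in 80S monosomes, 12241 to 14870 CPM in polysomes and, again above both, 18591 to 21040 CPM in total RNA. ninaE weighs most in these sums, with means of 8086, 5586 and 12762 CPM in 80S monosomes, polysomes and total RNA. By contrast, trp (2298, 2741 and 1737 CPM) and inaD (269, 275 and 246 CPM) were lowest in total RNA, so the sums do not describe every marker. The part of the shifts in the glia and photoreceptor sums in the values of the 7 genes over total RNA was not tested. None of 6 fat body markers passed (0.80 for Fbp1, -0.01 for apolpp, -0.30 for Yp3 and -0.33 for Yp1), and with the block 1 was higher and 2 were lower. In DESeq2, with both other scalings, with no filter, and without polysome replicate 2 or total RNA replicate 2 or 3, 1 was higher as well. Their summed levels overlapped between all 3 fractions.

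The 7 genes have between 5 (bt) and 22 (Zasp52) annotated transcripts. In the transcript table a read over an exon that several transcripts share is divided evenly among them, so the values of 1 gene's transcripts are not independent and are drawn towards each other. As for the genes, fold changes of single transcripts are a description, since the transcript table was in view when the genes were proposed. Of the 79 transcripts, 37 had more and 11 less in polysomes than in 80S libraries (adjusted p under 0.01 in edgeR), beside 11.2% and 2.88% of 28348 transcripts tested. With the replicate block 78 of 79 passed in either direction, beside 28.3%. The transcripts past the threshold were all 13 of sls, all 5 of bt, all 11 of Msp300 and 8 of 10 of Strn-Mlck, which were higher, and 11 of 12 of Zasp66, which were lower. Neither Unc-89 (0 of 6) nor Zasp52 (0 of 22) had any.

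In bt, whose transcripts differ little in length, log2 fold changes ran only from 1.68 (bt-RF, 8933 codons) to 1.69 (bt-RH, 8408 codons). Those of Unc-89 ran from 0.51 (Obsc-RG) to 0.52 (Obsc-RC). In Zasp52 they ran from -0.87 (Zasp52-RL, 897 codons) to -0.52 (Zasp52-RQ, 1758 codons), and in Zasp66 from -0.66 (Zasp66-RH, 135 codons) to -0.20 (Zasp66-RG, 165 codons). The spread was wider in sls, Msp300 and Strn-Mlck.

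**Figure D4:**
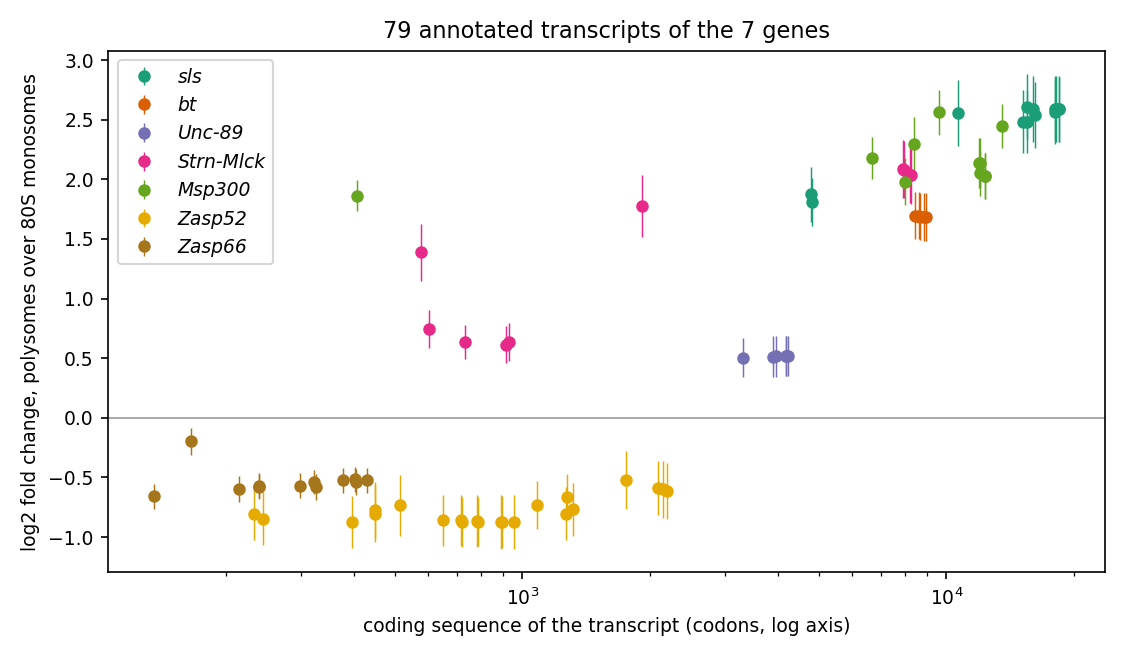
Coding length of each of the 79 transcripts (codons, log axis) against its log2 fold change of polysomes over 80S monosomes, coloured by gene, with bars of 1 SE. Transcripts of Strn-Mlck range from 0.61 to 2.09, those of sls from 1.81 to 2.61, and all of Zasp52 and Zasp66 lie below 0.

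Whether the transcripts of a gene were divided differently between fractions was tested with diffSpliceDGE in edgeR, which sets each transcript against the whole of its gene. The gene totals do not fix this measure, but it comes from the libraries and transcripts by which the genes were proposed, so its p-values are not independent support. Between polysomes and 80S monosomes, 1 of the 7 genes, Strn-Mlck, passed 0.01 (adjusted p = 6.74e-09), beside 0.933% of 6108 genes tested. Its adjusted p was at most 5.34e-05 in each of 13 alternatives. The adjusted p of each of the other 6 genes was 1.

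In Strn-Mlck 4 of 10 transcripts passed the test of single transcripts, where 0.194% of 21606 tested did. They were Strn-Mlck-RB (929 codons, log2 fold change relative to the gene -1.27, adjusted p = 0.000756), Strn-Mlck-RM (913 codons, -1.29, adjusted p = 0.000582), Strn-Mlck-RG (732 codons, -1.26, adjusted p = 0.000829) and Strn-Mlck-RN (602 codons, -1.15, adjusted p = 0.00431), all from diffSpliceDGE. These transcripts begin between 37.0 and 38.4 kb from the start of the gene and run to its 3′ end, so they lie within its last exons.

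Strn-Mlck-RB stood at 20.4, 13.9 and 14.7 CPM in the 80S libraries, at 29.6, 21.7 and 24.4 CPM in the polysome libraries and at 15.0, 12.4 and 14.0 CPM in total RNA. The longest transcript, Strn-Mlck-RU (8255 codons), stood at 98.3, 70.3 and 79.9 CPM, at 461, 233 and 323 CPM and at 171, 121 and 140.4 CPM. Both were higher in each polysome library than in each 80S library, but for Strn-Mlck-RU the gap was far wider. The log2 fold change of polysomes over 80S monosomes was 0.63 (SE 0.16) for Strn-Mlck-RB and 2.03 (SE 0.24) for Strn-Mlck-RU, and the 4 long transcripts with 7905 to 8255 codons had 2.03 to 2.09.

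The short 3′ transcripts share between 83.0% and 94.8% of their exon bases with Strn-Mlck-RU, and only 0 to 541 bases of each are in no other transcript. Their values therefore describe reads on the last exons of the gene, from whichever transcript those came. Strn-Mlck-RR (1918 codons) has 5466 bases that no other transcript holds, and its log2 fold change was 1.78 (SE 0.26). Strn-Mlck-RJ, the shortest at 576 codons, lies between 32.6 and 37.9 kb from the start of the gene and had 1.39 (SE 0.24), relative to the gene -0.51. It did not pass without the block, but did with the block (adjusted p = 0.00389).

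**Figure D5:**
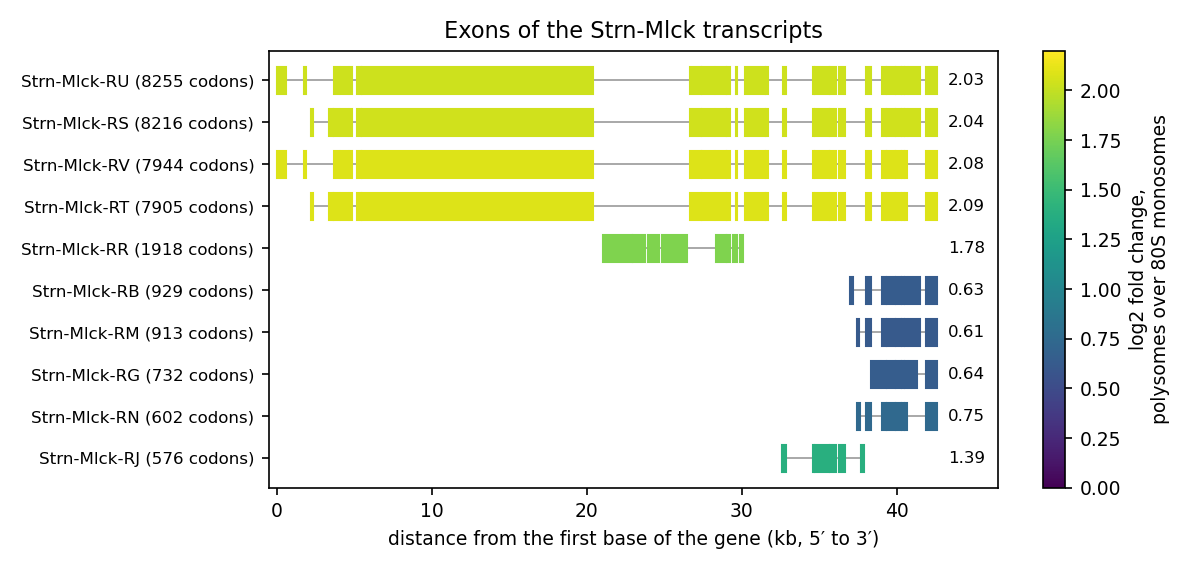
Exons of the 10 Strn-Mlck transcripts by distance from the first base of the gene (kb), ordered by coding length and coloured by the log2 fold change of polysomes over 80S monosomes, which is printed at the right. The 4 transcripts from the 3′ end have 0.61 to 0.75, and the 4 long ones have 2.03 to 2.09.

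Strn-Mlck also passed the isoform usage test between 80S monosomes and total RNA (adjusted p = 4.38e-05 in diffSpliceDGE, where 2.88% of genes passed). This comparison shares the 80S libraries, and the limit set by shared exons applies to it as well. There Strn-Mlck-RB had a log2 fold change of 0.23 (SE 0.16) and Strn-Mlck-RU -0.80 (SE 0.23). Between polysomes and total RNA, where 2.18% of genes passed, the adjusted p of Strn-Mlck was 1, and the values of these transcripts were 0.86 (SE 0.16) and 1.23 (SE 0.23). The block changed calls here. With it, Strn-Mlck (adjusted p = 0.00451) and Zasp52 (adjusted p = 0.000107) passed between polysomes and total RNA, beside 4.6% of all genes. No single transcript of either gene passed there. The lowest adjusted p in diffSpliceDGE was 0.0641 for Strn-Mlck-RG and 0.0245 for Zasp52-RQ. Between 80S monosomes and total RNA, Strn-Mlck (adjusted p = 3.3e-15) and Msp300 (adjusted p = 2.58e-07) passed with the block, beside 7.01%.

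In sls the kettin-length transcripts had the lowest values. sls-RD (4811 codons) and sls-RA (4796 codons) end at 27.1 and 25.1 kb of a gene that spans 75931 bases, while the other 11 transcripts reach its 3′ end and code for 10625 to 18468 codons. sls-RD and sls-RA share 85.5% and 96.7% of their exon bases with the longest transcript, and 2005 and 0 of their bases are in no other transcript. Their values therefore mostly describe reads on the first part of the gene, from whichever transcript those came. sls-RD stood at 49.5, 38.7 and 43.4 CPM in 80S monosomes and at 190.4, 114 and 158 CPM in polysomes. sls-RS (15481 codons) stood at 67.4, 48.9 and 55.5 CPM and at 472, 227 and 349 CPM. The log2 fold change was 1.81 (SE 0.20) for sls-RD and 2.61 (SE 0.27) for sls-RS. Relative to the gene, sls-RD had -0.69 and sls-RA -0.63, which did not pass without the block and did with it (-0.67 and -0.62, adjusted p = 2.45e-05 and 9.39e-05 in diffSpliceDGE). With the block the gene-level test passed for sls (adjusted p = 6.81e-05), Msp300 (adjusted p = 0.00118) and Strn-Mlck (adjusted p = 4.38e-20), 3 of the 7 beside 1.77% of all genes.

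In Msp300 the lowest value belonged to Msp300-RF, with 407 codons the shortest by far, at 13.0, 13.0 and 14.6 CPM in 80S monosomes and 53.7, 41.4 and 53.6 CPM in polysomes (log2 fold change 1.86, SE 0.13). Relative to the gene it had -0.44, and it passed only with the block (-0.43, adjusted p = 0.00938 in diffSpliceDGE). The highest was Msp300-RE (9606 codons), at 379.9, 345 and 404 CPM and at 2519, 1606 and 2545 CPM (2.56, SE 0.19). Msp300-RE starts 50.9 kb into the gene and ends at 85.7 kb. Only 318 of the 2610 exon bases of Msp300-RF and 564 of the 30030 of Msp300-RE are in no other transcript. Their values therefore mostly describe reads on the exons each covers, from whichever transcript those came.

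The profile of each gene over the 9 libraries was set against all other protein-coding genes. With 3 fractions and shared replicate numbers, many genes correlate highly, and the values describe likeness only. The gene most like Strn-Mlck was RyR (Pearson r of log2 CPM 0.998, 9 libraries), and those most like bt and Unc-89 were shot (0.994) and Dys, the fly dystrophin (0.995). sls was most like Dhc93AB, an axonemal dynein heavy chain (0.992), Msp300 most like CG34300 (0.993), which had a mean of only 0.313 CPM in 80S monosomes, Zasp52 most like uncNacbeta (0.993) and Zasp66 most like yps, a Y-box protein (0.993). With the mean profile of all 7 genes, the highest were CG3339 (0.980), Dhc93AB (0.978), betaNACtes4 (0.975), t-cup (0.972) and Dhc36C (0.968). Of these, betaNACtes4, t-cup and Dhc36C were also low, with means of 0.0734, 0.497 and 3.21 CPM in 80S monosomes. Among the 7, correlations between sls, bt, Strn-Mlck and Msp300 lay between 0.907 and 0.989, and that of Zasp52 with Zasp66 was 0.541. Unc-89 had 0.674 with Strn-Mlck and -0.772 with Zasp66.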

How the data were processed

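Per the labels and the study's methods, the stranded libraries followed depletion of ribosomal RNA. The authors used Trimmomatic (0.33) for single reads, STAR (2.7.10a) with BDGP6.32 and featureCounts (2.0.1) on the sense strand. Estimated counts were deposited per gene and per transcript, with no normalization. Reads with several map positions or over several features are split, so they need not be whole. The same-strand features that overlap the 7 genes share exon bases only with Msp300 (266 bases, 0.381% of its exon bases). The authors' comparisons are not part of the tables used, and 0 columns were left out.

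Rounded estimated counts went into edgeR 4.0.16 (R 4.3.3, limma 3.58.1) with filterByExpr, TMM scaling, robust quasi-likelihood fits over all 9 libraries by fraction, Benjamini-Hochberg adjustment over all features tested, threshold 0.01. Each SE is derived from the fold change and its F statistic. Isoform usage was tested with diffSpliceDGE. The scripts were tested on simulated data. CPM are TMM-scaled. Symbols, lengths and coordinates came from Ensembl BDGP6.54, a newer annotation of the same assembly, which holds 23851 of the 23932 genes. Unc-89 was matched through the synonyms of the RefSeq gene table, and unc-45 was not analysed here.

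Libraries of different fractions carry the same replicate numbers, and total RNA was set aside from the same lysate. Deviations from the fraction means correlated in each of 9 same-numbered pairs (0.179 to 0.416), so the numbers pair the libraries, and the block on this number was among the alternatives. The others were DESeq2 1.42.0 with a local fit, relative log expression size factors, scaling over nuclear protein-coding genes, other filters, the 6 libraries compared and each library left out. The members and lists were chosen with earlier results of these data known. Named genes are the 7, the transcripts of each with the highest and lowest polysome over 80S value or past the usage test, the 2 highest and 2 lowest of each list, and the genes of most similar profile. Some further transcripts (Strn-Mlck-RU, Strn-Mlck-RR, Strn-Mlck-RJ, sls-RA, Msp300-RG) and the genes Syt1, repo, inaD and Act88F were named after their values were seen.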

Additional observations from a re-analysis of the deposited data

How the results depend on the processing

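For the 7 genes and 3 comparisons, 21 fold changes were recomputed under 16 alternatives. Of 336 values, 0 reversed, 288 kept their side of the threshold, 34 lost it and 14 gained it. The counts of the 7 genes past the threshold were 5, 3 and 5 for polysomes against 80S monosomes, 80S monosomes against total RNA and polysomes against total RNA. With the replicate number as a block they were 7, 7 and 7, and with each library left out in turn they ranged from 4 to 5, from 1 to 3 and from 1 to 6. The 4 genes of the 6 other muscle and linker lists became 10 with DESeq2 and 26 with the block, and ranged from 3 to 6 with libraries left out. The 48 transcripts became 78 with the block and 35 to 51 with libraries left out. The 1 gene past the isoform usage test became 3 with the block and stayed 1 with each library left out. The cause of these shifts was not tested.

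Over all features, DESeq2 made 2488 calls for polysomes against 80S monosomes and edgeR 1592, or 3533 with the block. For 80S monosomes against total RNA the counts were 3414, 2043 and 4506, and for polysomes against total RNA 4181, 2959 and 5405. The lowest count of any of the 7 genes in a library was 4806, for Zasp66, where counting error is 1.44%.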
